A study of Homo sapiens with 18 samples.

Results

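The 10 genes described here encode inhibitors that act on NFκB signaling and are, for the most part, themselves targets of NFκB. They are NFKBIA, NFKBIB, NFKBIE, NFKBIZ, BCL3, TNFAIP3, CYLD, TNIP1, TNIP2 and ZC3H12A, taken by gene symbol from the 20802 genes of the count tables. The list was chosen with earlier results of these data known, so the shares of members called below are not those of a blind choice. All 10 had a row and passed the filter of more than 100 reads summed over all libraries. BCL3 passed it only through the siTsg101 libraries, since its other 12 libraries held 91 reads in total, and TNFAIP3 had 52 reads in the 6 control libraries together.

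The study asked which transcriptional responses follow loss of ESCRT-I, a complex that sorts membrane proteins in endosomes for degradation in the lysosome. RKO cells, a human colorectal carcinoma line, received 30 nM of 1 of 6 siRNAs and were harvested 72 h later. The controls were the nontargeting siCtrl#1 and siCtrl#2, the ESCRT-I subunit Tsg101 was depleted with siTsg101#1 or siTsg101#2, and the subunit Vps28 with siVps28#1 or siVps28#2. Each siRNA was represented by 3 libraries, 1 from each of 3 batches, which makes 18 libraries of 1 cell line that carried no other genetic change or stimulus in the labels.

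Each library was a targeted amplicon library, in which 1 stretch of each transcript was amplified and sequenced, and held 2561790 to 7466916 reads on genes. TSG101 averaged 118.4 CPM (read counts scaled to library size and composition) with siCtrl#1 and 3.90 and 3.41 with siTsg101#1 and siTsg101#2, and VPS28 averaged 103.4 CPM with siCtrl#1 and 5.68 and 6.11 with siVps28#1 and siVps28#2, so each labelled target was depleted in its own libraries. Of the 7 epithelial and colorectal markers, KRT18, KRT8, EPCAM and CDX2 were detected in all 18 libraries, CDH1 had no read, KRT19 had 1 and VIL1 had 6. In the mean of the 4 on-target siRNAs KRT8 fell (log2 fold change -0.69) and EPCAM rose (0.65), EPCAM also being higher with siCtrl#2 (1.02). The summed level of the 7 was 125.5 to 150.9 CPM in the controls, 96.9 to 119.6 with the siTsg101 siRNAs and 92.7 to 139.0 with the siVps28 siRNAs. Of the 6 markers of blood, endothelial and fibroblast cells, PTPRC, CD3E and COL1A2 had no read and PECAM1 and COL1A1 reached at most 1.47 CPM. CD68, a lysosomal glycoprotein also used as a macrophage marker, lay between 471.1 and 1677 CPM of reads on genes and rose in the mean of the 4 on-target siRNAs (log2 fold change 0.88). The summed level of the 6 markers, nearly all of it CD68, was 472.5 to 692.3 CPM with siCtrl#1, 784.7 to 986.9 with siCtrl#2, 1153 to 1678 with siTsg101#1, 1051 to 1157 with siTsg101#2, 658.2 to 809.7 with siVps28#1 and 1130 to 1586 with siVps28#2. The part of these markers in the results below was not tested.

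NFκB transcription factors are held in the cytoplasm by IκB proteins until the IKK kinases mark these for degradation, after which the freed factors enter the nucleus and switch on inflammatory genes. Among those genes are most of the inhibitors themselves, which gives the pathway several negative feedback loops. New IκB proteins recapture the factors, ubiquitin-editing enzymes disassemble the receptor complexes upstream of IKK, and an RNase degrades inflammatory mRNAs. The messages of some of these inhibitors are therefore read as reporters of NFκB activity. Whether the changes below reflect that activity was not tested.

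Most of the 10 messages were higher in cells depleted of ESCRT-I. With siTsg101#1, 9 of the 10 were up-regulated relative to siCtrl#1 (at least 1.5-fold and Benjamini-Hochberg adjusted p under 0.05 by edgeR's quasi-likelihood test), against 11.6% of all 10246 genes tested. The corresponding counts were 8 with siTsg101#2 against 10.1% of all genes, 8 with siVps28#1 against 4.85%, and 8 with siVps28#2 against 7.09%. None of the 10 was lower with any of these siRNAs, and the share of all genes called lower was 10.1%, 6.94%, 3.78% and 6.22% in the same order; no member was lower at an unadjusted p under 0.05 either, and DESeq2 called 0. The same 7 genes, NFKBIA, NFKBIB, NFKBIE, NFKBIZ, TNFAIP3, TNIP1 and CYLD, were up with all 4 siRNAs, as were 2.55% of all genes. When the effects of the 4 siRNAs were averaged, 8 members were up, these genes plus ZC3H12A, against 8.4% of all genes, and 0 were down, against 6.57%. Both siTsg101 counts include BCL3, which passed the count filter only through the siTsg101 libraries, so its calls there are a description and not a test. With siCtrl#2 as the reference, NFKBIE and CYLD were not up with all 4 siRNAs, whereas ZC3H12A was. The 4 comparisons with siCtrl#1 share its libraries and are given side by side, not as independent repeats. In such bulk libraries, more cells carrying a transcript and more transcript per cell cannot be told apart.

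As a description of size, the median log2 fold change of the 10 genes was highest with siTsg101#1, at 1.46, and lay at 1.01 for siTsg101#2, 1.09 for siVps28#1 and 1.12 for siVps28#2. Over all genes tested the medians lay between -0.01 and 0.01. The order of the members by the mean of the 4 siRNAs ran from NFKBIA (2.56) through TNFAIP3 (1.92), NFKBIE (1.54), CYLD (1.35), NFKBIZ (1.19), BCL3 (1.14), TNIP1 (0.98), NFKBIB (0.90) and ZC3H12A (0.77) to TNIP2 (0.12). These are differences within a gene, since amplicon counts do not allow levels to be compared between genes.

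**Figure D1:**
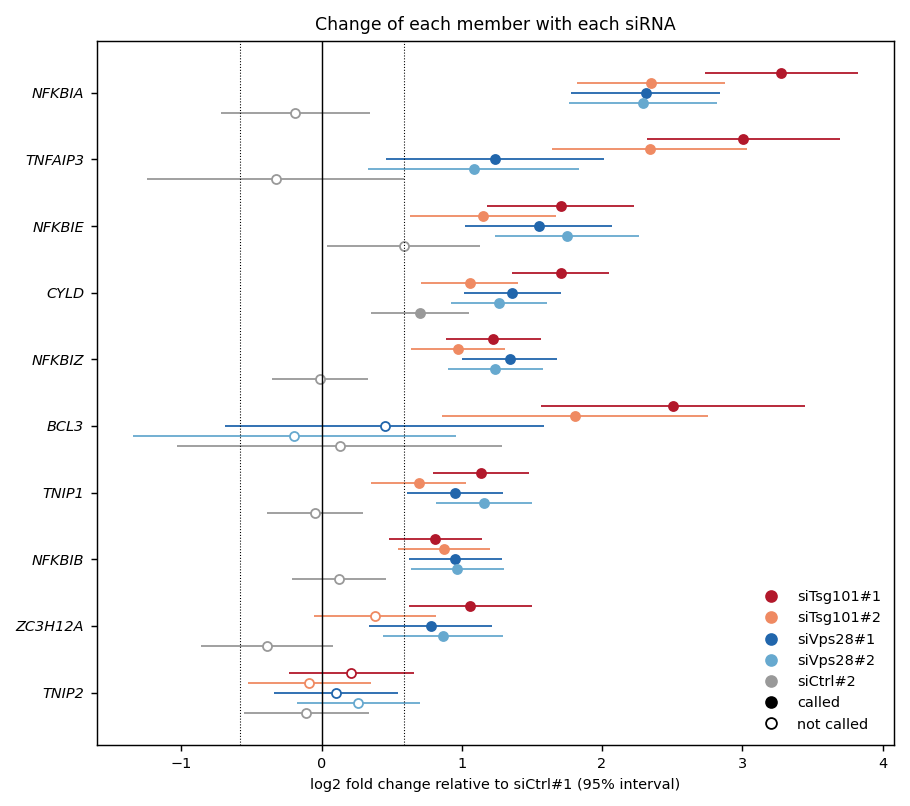
Log2 fold change of each of the 10 genes relative to siCtrl#1 for the 4 on-target siRNAs and for siCtrl#2, with 95% intervals, filled where called, and dotted lines at 1.5-fold. NFKBIA lies highest, TNIP2 is called with no siRNA, and BCL3 is called with the siTsg101 siRNAs alone, through whose libraries alone it passed the count filter.

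Several members carry the κB consensus, the sequence that NFκB dimers bind, close to their transcription start. To show this, the 250 bases before the start are printed for the members with the 2 largest changes, NFKBIA and TNFAIP3, and for the related pair TNIP1 and TNIP2, of which the first was up and the second was not called. The sequences are RefSeq promoters on GRCh38.p14, read 5′ to 3′ in the direction of transcription, and capitals mark matches to the κB consensus with A or T at its sixth base on either strand.
NFKBIA, chr14:35404750-35404999, minus strand: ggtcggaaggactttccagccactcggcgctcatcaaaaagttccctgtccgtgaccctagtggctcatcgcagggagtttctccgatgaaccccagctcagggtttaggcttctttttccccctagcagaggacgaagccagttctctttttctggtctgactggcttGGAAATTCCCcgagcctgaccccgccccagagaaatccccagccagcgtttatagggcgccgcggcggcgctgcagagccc
TNFAIP3, chr6:137867009-137867258, plus strand: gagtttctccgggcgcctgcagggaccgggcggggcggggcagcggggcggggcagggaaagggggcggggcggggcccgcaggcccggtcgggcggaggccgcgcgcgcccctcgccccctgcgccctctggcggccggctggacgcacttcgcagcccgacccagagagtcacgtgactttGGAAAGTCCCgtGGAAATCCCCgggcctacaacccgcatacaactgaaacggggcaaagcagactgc
TNIP1, chr5:151081035-151081284, minus strand: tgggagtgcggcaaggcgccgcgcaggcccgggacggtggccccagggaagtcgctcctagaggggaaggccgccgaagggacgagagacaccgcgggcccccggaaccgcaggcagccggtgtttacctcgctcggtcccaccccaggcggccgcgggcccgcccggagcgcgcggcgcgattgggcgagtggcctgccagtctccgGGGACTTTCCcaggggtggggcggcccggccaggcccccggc
TNIP2, chr4:2756337-2756586, minus strand: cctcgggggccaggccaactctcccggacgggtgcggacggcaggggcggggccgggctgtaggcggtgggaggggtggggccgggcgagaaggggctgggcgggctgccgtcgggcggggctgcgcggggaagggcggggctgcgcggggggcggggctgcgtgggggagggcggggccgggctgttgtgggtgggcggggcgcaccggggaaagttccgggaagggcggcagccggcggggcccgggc
The matches lie at bases -81 to -72 of NFKBIA, -67 to -58 and -55 to -46 of TNFAIP3 and -42 to -33 of the TNIP1 window shown, where -1 is the last base before the start. The other TNIP1 window, at a different start site, holds no match. No stretch of the TNIP2 window carries these letters, which says nothing of sites elsewhere. Of the 9 members with a RefSeq window, from 250 bases before to 50 after the start, 7 held at least 1 match (NFKBIA, NFKBIB, NFKBIZ, TNFAIP3, TNIP1, CYLD and BCL3), against 7.09% of all 27305 genes in the table and 8.85% of the 8432 genes tested that could be matched to it. TNIP2 and ZC3H12A held none. Match and call did not always go together: ZC3H12A was up in the mean of the 4 siRNAs, and BCL3, with a match, did not pass there. With any base allowed at the sixth position the members stayed at 7 of 9, while the shares rose to 13.3% of all genes and 17.3% of the genes tested. The 9 members have 14 windows between them, of which 9 held a match and some overlap, so they had more chances of a match than a gene with 1 window. In BCL3 the match begins 2 bases past the start site. Most members are known targets of NFκB, so their share of matches beside that of all genes is a description and not a test. A match is a description of letters and was not tied to binding in these cells.

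NFKBIA encodes IκBα, the inhibitor that is rapidly resynthesised once NFκB is active. Its level was 27.3, 67.1 and 41.8 CPM in the siCtrl#1 libraries (replicates 1 to 3) and 43.9, 43.8 and 31.2 CPM with siCtrl#2. It was 571.9, 293 and 445.2 CPM with siTsg101#1 and 278.9, 192.8 and 215.6 CPM with siTsg101#2. Vps28 depletion gave 230.1, 204 and 235.2 CPM for siVps28#1 and 231.1, 212.3 and 217.4 CPM for siVps28#2. Every library of depleted cells was thus higher than every control library. Relative to siCtrl#1, NFKBIA rose by 3.28 ± 0.26 (SE) on the log2 scale after siTsg101#1. The rises after siTsg101#2, siVps28#1 and siVps28#2 were nearly equal, at 2.35 ± 0.26, 2.31 ± 0.26 and 2.29 ± 0.26. The mean of the 4 was 2.56 ± 0.23, or 5.89-fold (adjusted p = 6.56e-08 by edgeR).

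NFKBIB and NFKBIE encode IκBβ and IκBε, the other classical cytoplasmic inhibitors. NFKBIB was 39.4 to 45.0 CPM with siCtrl#1, 36.6 to 56.2 with siCtrl#2 and 70.2 to 93.9 in the 12 on-target libraries, without overlap. Its rise was narrow across siRNAs, from a log2 fold change of 0.81 with siTsg101#1 to 0.97 with siVps28#2 (mean 0.90 ± 0.13, adjusted p = 3.32e-05 by edgeR). NFKBIE was 8.18, 10.8 and 10.8 CPM with siCtrl#1 and 20.32, 10.38 and 14.04 CPM with siCtrl#2. The on-target libraries ran from 19.0 to 43.3 CPM, all above siCtrl#1, and 11 of the 12 were above the highest control. The mean rise of NFKBIE over siCtrl#1 was 1.54 ± 0.22 on the log2 scale (adjusted p = 1.84e-05 by edgeR). With siCtrl#2 as the reference, its siTsg101#2 change was 0.57 and no longer passed (adjusted p = 0.11 by edgeR). A 40-base stretch of NFKBIB overlaps the antisense gene SIRT2, and strand use in the counting is not given in the sources used here.

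NFKBIZ and BCL3 encode IκBζ and Bcl-3, atypical IκB proteins that work in the nucleus, where they modulate NFκB targets and can also act as co-activators. NFKBIZ was 37.3 to 53.8 CPM with siCtrl#1 and 35.6 to 50.7 with siCtrl#2, and 76.3 to 113.2 CPM in the on-target libraries, again without overlap. NFKBIZ rose least after siTsg101#2 (0.97 on the log2 scale) and most after siVps28#1 (1.34), with siTsg101#1 at 1.23 and siVps28#2 at 1.24 (mean 1.19 ± 0.14, adjusted p = 1.78e-06 by edgeR). NFKBIZ shares 194 bases with NXPE3 on the same strand, so reads there could belong to either gene.

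BCL3 behaved differently from NFKBIZ. It was 1.59, 2.77 and 0.68 CPM with siCtrl#1 and 2.29, 1.24 and 1.54 CPM with siCtrl#2, from 4 to 9 reads per library. With siTsg101#1 it reached 14.3, 6.30 and 7.12 CPM and with siTsg101#2 4.02, 8.24 and 3.97 CPM. After Vps28 depletion BCL3 was 2.89, 1.43 and 2.08 CPM (siVps28#1) and 1.30, 1.66 and 1.04 CPM (siVps28#2), values that overlap the controls. BCL3 rose with siTsg101#1 (2.50 ± 0.45, adjusted p = 0.000291) and siTsg101#2 (1.81 ± 0.46, adjusted p = 0.00692). It passed the count filter only through the libraries of these siRNAs, so these p values and calls are a description and not a test. The siTsg101#2 call was lost without siTsg101#2 replicate 2 (adjusted p = 0.0547) or without siCtrl#1 replicate 3 (0.0635). With siVps28#1 and siVps28#2 the estimates were 0.45 (95% interval -0.69 to 1.59) and -0.19 (-1.34 to 0.96), intervals that span 1.5-fold in both directions. Averaged over the 4 siRNAs, BCL3 was 1.14 (adjusted p = 0.0519 by edgeR) and did not pass, whereas it passed with the replicate block (0.0369) and with DESeq2 (0.0459).

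TNFAIP3 encodes A20, a ubiquitin-editing enzyme that dismantles signaling complexes at TNF and Toll-like receptors. Its level was 2.50, 3.38 and 1.20 CPM with siCtrl#1 and 2.03, 1.98 and 1.35 CPM with siCtrl#2. It was 20, 14.4 and 19.4 CPM with siTsg101#1 and 10.8, 13.1 and 9.93 CPM with siTsg101#2. With siVps28#1 the values were 4.33, 4.78 and 6.46 CPM, and with siVps28#2 5.35, 5.96 and 2.78 CPM. All but 1 of the 12 on-target libraries, siVps28#2 replicate 3, were above the highest control. Tsg101 depletion raised TNFAIP3 by 3.01 ± 0.33 on the log2 scale for siTsg101#1 (adjusted p = 7.58e-07) and 2.34 ± 0.34 for siTsg101#2 (2.66e-05). Vps28 depletion raised it by 1.23 ± 0.38 for siVps28#1 (0.0399) and 1.09 ± 0.36 for siVps28#2 (0.0464), both close to the threshold and resting on 15 to 36 reads per library. Of 26 alternative analyses, 6 lost the siVps28#1 call and 12 lost the siVps28#2 call, so TNFAIP3 was then not among the genes up with all 4 siRNAs. Without siCtrl#1 replicate 3 these 2 estimates were 0.85 and 0.70. TNFAIP3 overlaps the antisense gene WAKMAR2 over 95 bases, and CYLD overlaps antisense transcripts over 81 bases.

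CYLD encodes a deubiquitinase that removes linear and lysine-63-linked chains from the same complexes. The gene was 18.4, 21.8 and 22.3 CPM with siCtrl#1 and 35.3, 32.6 and 33.9 CPM with siCtrl#2. It was 77.6, 62.8 and 64.5 CPM with siTsg101#1, 48.5, 47.3 and 34.1 CPM with siTsg101#2, 55.4, 51.8 and 53.3 CPM with siVps28#1 and 53.5, 50.6 and 46.4 CPM with siVps28#2. All on-target libraries lay above siCtrl#1, and all but siTsg101#2 replicate 3 lay above siCtrl#2. The mean rise over siCtrl#1 was 1.35 ± 0.14 (adjusted p = 5.30e-07 by edgeR). Of the 10 members, CYLD was the 1 that changed between the controls, being higher with siCtrl#2 by 0.70 ± 0.17 (adjusted p = 0.0261 by edgeR), against 2.06% of all genes called in either direction. That control call was lost with only the compared groups in the fit and without any 1 of siCtrl#1 replicates 1, 2 and 3 or siCtrl#2 replicates 2 and 3. Against siCtrl#2 the siTsg101#2 change of CYLD was 0.35 (adjusted p = 0.135) and its siVps28#2 change 0.57, under 1.5-fold.

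TNIP1 and TNIP2 encode ABIN-1 and ABIN-2, ubiquitin-binding partners of A20. TNIP1 was 106.8 to 132.8 CPM in the 6 control libraries and 183.1 to 322.9 CPM in the 12 on-target libraries, without overlap. Its log2 fold change ran from 0.69 with siTsg101#2 to 1.16 with siVps28#2 (mean 0.98 ± 0.14, adjusted p = 1.90e-05 by edgeR). TNIP2 was 41.5, 45.7 and 47.9 CPM in the siCtrl#1 libraries in rising order, and 34.9 to 71.3 CPM in the on-target libraries, on both sides of the controls. Its mean change was 0.12 with a 95% interval of -0.23 to 0.47 (adjusted p = 0.651 by edgeR), and a rise of 1.5-fold lay outside that interval. For single siRNAs such a rise lay inside the interval with siTsg101#1 (-0.23 to 0.66) and siVps28#2 (-0.17 to 0.70). It lay outside with siTsg101#2 (-0.53 to 0.35) and siVps28#1 (-0.34 to 0.55). TNIP2 in siVps28#1 replicate 3 stood at 71.3 CPM, against 34.9 and 38.7 CPM in the other libraries of that group.

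ZC3H12A encodes Regnase-1, an RNase that degrades inflammatory mRNAs. It was 10.9, 12.3 and 10.4 CPM with siCtrl#1 and 9.65, 7.17 and 8.66 CPM with siCtrl#2. The values were 28.2, 18.4 and 23.9 CPM with siTsg101#1, 12.2, 15.6 and 15.9 CPM with siTsg101#2, 18.2, 15.8 and 23.3 CPM with siVps28#1 and 20.9, 20.9 and 19.3 CPM with siVps28#2. Of the on-target libraries, siTsg101#2 replicate 1 alone lay within the control range. ZC3H12A rose with siTsg101#1 (1.06 ± 0.21, adjusted p = 0.000672), siVps28#1 (0.78 ± 0.21, 0.0219) and siVps28#2 (0.87 ± 0.21, 0.00541). With siTsg101#2 it was 0.38 (95% interval -0.05 to 0.82) and not called relative to siCtrl#1. Against siCtrl#2 that change was 0.77 and passed (adjusted p = 0.0153).

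**Figure D2:**
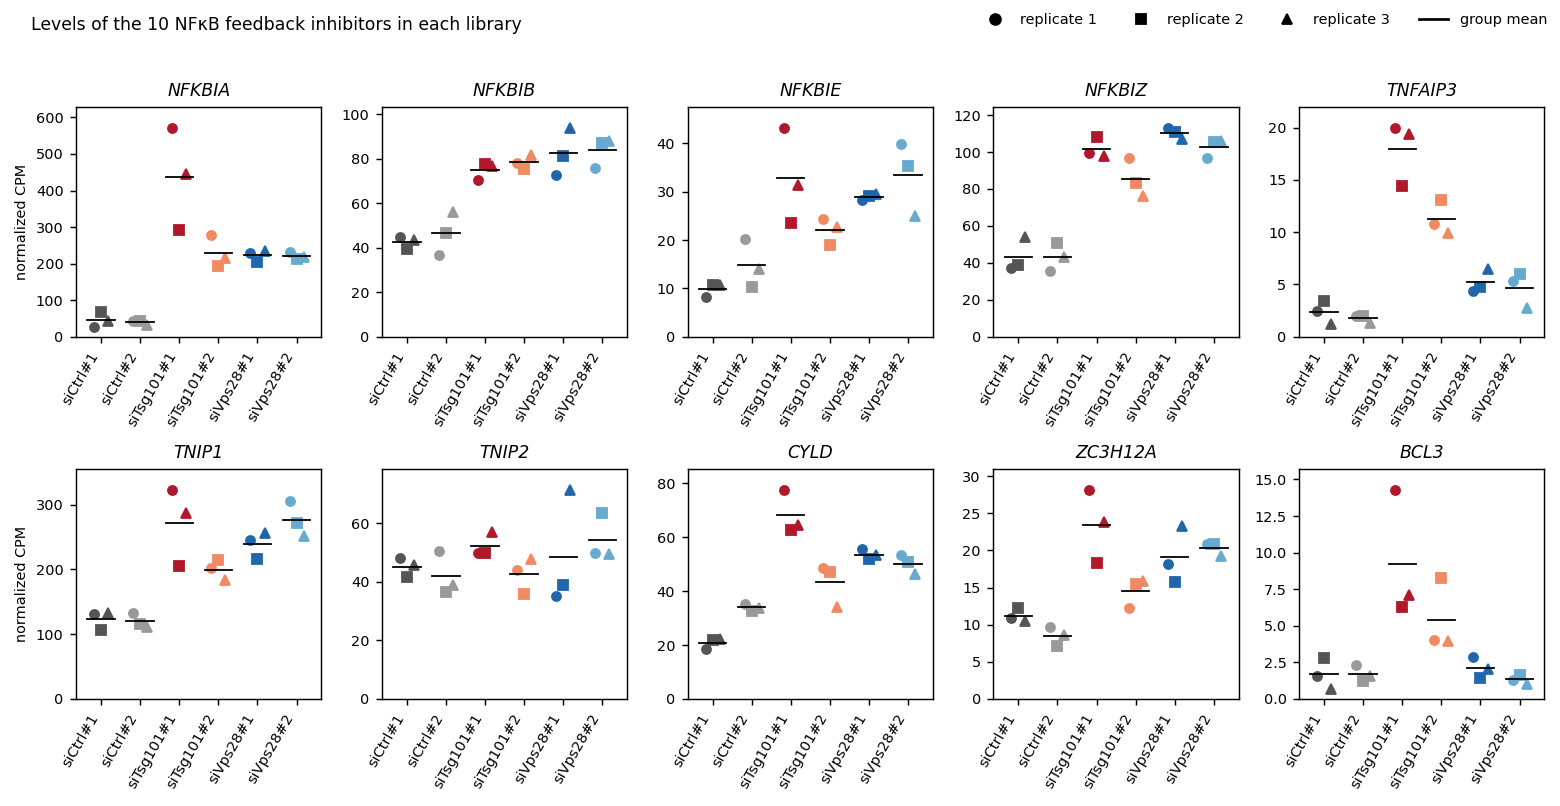
Normalized CPM of the 10 genes in each of the 18 libraries, by siRNA, with a marker per replicate and a line at the group mean, each panel on its own axis from 0. NFKBIA, NFKBIB, NFKBIZ and TNIP1 show all 12 on-target libraries above all 6 controls, and TNFAIP3 and BCL3 stand highest with the siTsg101 siRNAs.

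Complete separation of the 12 on-target libraries from the 6 controls was found for 4 of the 10 genes, NFKBIA, NFKBIB, NFKBIZ and TNIP1, and for 1.96% of all genes. Within batches, where each on-target library was set against the siCtrl#1 library of its own batch, all 12 ratios were above 0 on the log2 scale for 8 of the members. TNIP2 had 8 such ratios of 12 and BCL3 9. The ratios of a batch share its siCtrl#1 library, and the share of all genes was not computed, so these counts are a description.

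The comparison of the 2 subunits asked whether the response depended on which part of ESCRT-I was targeted. The study reports that loss of either subunit also strongly lowered the protein of the other. Neither arm therefore left the other subunit intact, and the mRNA levels given here do not show this. Averaged over both siRNAs of each target, 2 of the 10 genes were higher with siTsg101 than with siVps28, TNFAIP3 and BCL3, against 4.12% of all genes, and 0 were lower, against 2.08%. No member was lower at an unadjusted p under 0.05 or by DESeq2. The SEs and p values of this comparison come from the scatter of libraries within each siRNA. With 2 siRNAs per target, they do not cover effects particular to an siRNA. Within the siTsg101 siRNAs, TNFAIP3 was 0.67 higher with siTsg101#1 than with siTsg101#2, without passing (adjusted p = 0.125 by edgeR). Between the targets TNFAIP3 differed by 1.51 ± 0.21 on the log2 scale (2.86-fold, adjusted p = 1.67e-05 by edgeR). Its siTsg101 libraries ran from 9.93 to 20 CPM and its siVps28 libraries from 2.78 to 6.46 CPM, without overlap. BCL3 differed by 2.03 ± 0.31 (4.08-fold, adjusted p = 7.34e-05 by edgeR), with 3.97 to 14.3 CPM against 1.04 to 2.89 CPM and no overlap. Within the 3 batches the differences were 1.52, 1.29 and 1.59 for TNFAIP3 and 1.73, 1.92 and 1.55 for BCL3. These 2 genes had the fewest reads of the 10, and a filter of at least 10 reads in every library removes both. BCL3 also passed the main filter only through the siTsg101 libraries, the group in which it was high. Its p, its lack of overlap and its place among the 2 genes counted are therefore a description and not a test.

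NFKBIA was higher with siTsg101 by 0.51 ± 0.17 (adjusted p = 0.0497 by edgeR), below 1.5-fold and so not counted, and 0.79, 0.19 and 0.45 within batches. Its adjusted p ranged from 0.00151 to 0.156 over 25 alternatives, the highest without siTsg101#1 replicate 1. The other 7 members differed by -0.22 (NFKBIE, 95% interval -0.56 to 0.11) to 0.07 (CYLD, -0.16 to 0.30). For these 7, a difference of 1.5-fold in either direction lay outside the interval.

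**Figure D3:**
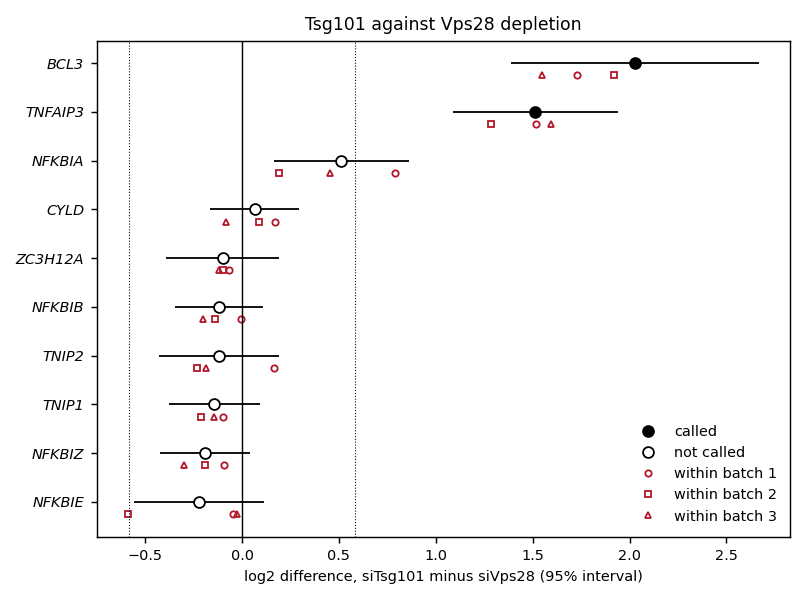
Log2 difference of each gene between both siTsg101 and both siVps28 siRNAs, with 95% intervals (black, filled where called) and the difference within each batch (red), with dotted lines at 1.5-fold. BCL3 (2.03) and TNFAIP3 (1.51) lie to the right of the line in every batch, and 7 genes lie between -0.22 and 0.07.

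The siRNAs of 1 target were also compared. Between siTsg101#1 and siTsg101#2, 3 of the 10 genes differed, against 6.94% of all genes, and all were higher with siTsg101#1. These were NFKBIA by 0.93 ± 0.24 (adjusted p = 0.0171 by edgeR), CYLD by 0.65 ± 0.16 (0.0111) and ZC3H12A by 0.68 ± 0.20 (0.0363). The count was 0 without siTsg101#1 replicate 1 or siTsg101#2 replicate 3, and 1 without siTsg101#1 replicate 3 or siTsg101#2 replicate 2. The residual TSG101 level was 3.27 to 4.75 CPM with siTsg101#1 and 2.49 to 4.97 CPM with siTsg101#2, in overlapping ranges. Between siVps28#1 and siVps28#2 no member differed, against 0.488% of all genes, with 0 at an unadjusted p under 0.05 and 0 by DESeq2. There the estimates lay between -0.21 (TNIP1, 95% interval -0.54 to 0.13) and 0.64 (BCL3, -0.46 to 1.74).

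Other genes of the pathway were read from lists by role, in the mean of the 4 siRNAs, in which 8.4% of all genes were up and 6.57% down. All 5 NFκB subunits were tested and 4 were up in the mean of the 4 siRNAs, led by RELB (1.53) and NFKB2 (1.38), while RELA, which encodes p65, was 0.27 and not called. Of 7 tested genes of the IKK complex and its upstream kinases, 3 were up, led by MAP3K14 (1.59), which encodes the NIK kinase of the noncanonical arm, and TAB2 (0.66), and CHUK was -0.0003. Between the controls TAB2 was 0.55 in favor of siCtrl#2, without passing (adjusted p = 0.159 by edgeR), and MAP3K14 was -0.83 there (0.136). Of 8 TNF receptor adaptors tested, 2 were up, BIRC3 (3.15) and BIRC2 (0.81), which encode the ubiquitin ligases cIAP2 and cIAP1, 1 was down, and TRAF3 was 0.13 and not called. BIRC2 was 0.66 higher with siCtrl#2 than with siCtrl#1 (adjusted p = 0.0685 by edgeR, and 0.0366 with the replicate block, which calls it). Up with each of the 4 siRNAs were 2 of the 5 subunits, 1 of the 7 IKK genes and 1 of the 8 adaptors, against 2.55% of all genes. NFKB2 was called with neither siVps28 siRNA.

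A further list held partners and relatives of the 10 inhibitors, such as other components of the A20 and linear ubiquitin complexes. Of 13 tested, 0 were up and 1 was down, NFKBID, which encodes a further atypical IκB (-0.74, adjusted p = 0.0234 by edgeR), shares near or below those of all genes. NFKBID was called down with none of the 4 siRNAs singly (with the replicate block, siVps28#2 alone passed), and was -0.51 with siCtrl#2 (adjusted p = 0.466). TAX1BP1, an adaptor of A20, was 0.59 and not called, and SHARPIN was 0.07. Of the 10 tested NFκB-induced effector genes, 7 were up, both in the mean and with each of the 4 siRNAs. The chemokines CXCL8 (6.53) and CXCL3 (4.76) rose most, and IER3 was -0.11 and not called. CXCL3 was 1.66 with siCtrl#2 relative to siCtrl#1, without passing (adjusted p = 0.364 by edgeR). The 4 listed effector genes not tested, CCL2, IL6, TNF and LTB, had 0 to 11 reads in all 18 libraries together. CXCL1 (4.39) and CCL20 (4.24) passed the filter with 145 and 125 reads. The filter sums all libraries, so genes high in depleted cells alone can enter it while silent ones drop out. The 7 of 10 effector genes and the median of their list are therefore a description and not a test. The list medians were 0.98 for subunits, 0.57 for IKK, 0.27 for adaptors, 0.15 for partners, 2.51 for effectors and 1.17 for the 10 inhibitors, against -0.01 over all genes.

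**Figure D4:**
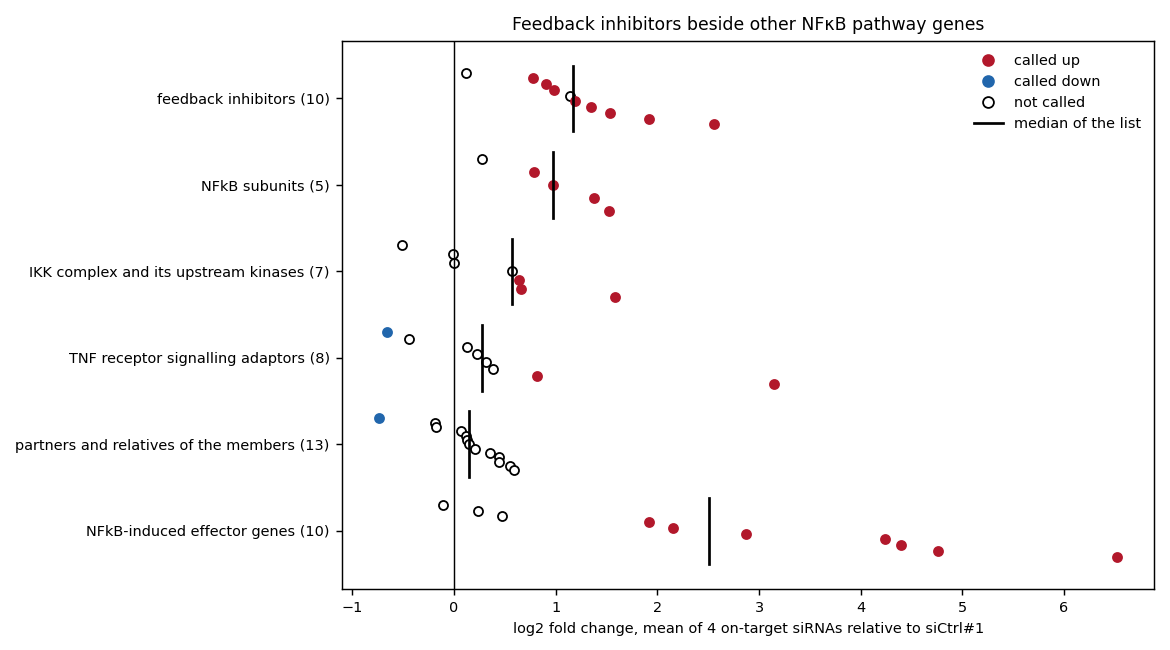
Log2 fold change, averaged for the 4 siRNAs against ESCRT-I, of every tested gene of 6 lists (1 point per gene, list size in brackets), colored by call, with a line at the list median. The inhibitors (median 1.17) lie between the effectors (2.51) and the partners and relatives (0.15).

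The genes whose levels over the 18 libraries were most like those of NFKBIA, by Pearson's r of log2 CPM, were IRAK2 (0.97), NINJ1 (0.97), CXCL8 (0.96), PLK3 (0.96) and CCL20 (0.96). For TNFAIP3 they were GUK1 (0.94), ICAM1 (0.93), ESD (0.92), GRINA (0.91) and LMO4 (0.91). These values describe a set of libraries in 6 groups that share their controls and batches.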

How the data were processed

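Libraries of RKO cells were made with an amplicon panel covering the human transcriptome. The deposited files held raw read counts per RefSeq transcript target, 1 file per library, and the submitters' processing notes name HTSeq 0.6.0 and DESeq2 1.18.1. The authors aligned reads to the AmpliSeq transcriptome reference on hg19 with the Torrent Mapping Alignment Program and then counted them. The strand setting is not given in the sources used here. Between 48.23% and 49.07% of reads lay on no feature and were left out of library sizes.

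Targets were named through the RefSeq gene table (20228 of 20802 matched). Genes with more than 100 counts over all libraries were kept and 386 noncoding genes dropped, leaving 10246. Counts were normalized by TMM and tested in edgeR 4.0.16 (R 4.3.3) with the quasi-likelihood test over all 6 groups, with Benjamini-Hochberg adjustment over all genes. A gene was called at 1.5-fold and adjusted p under 0.05. CPM values use these normalized library sizes over tested genes, except for the cell markers, scaled to all reads on genes. The script was tested on simulated data. Alternatives were DESeq2 1.42.0, other normalization, filters, references and samples. Batch in the labels equals the replicate number, so numbers pair the samples: 45 same-number pairs had a mean correlation of residuals of 0.15, from -0.15 to 0.39. No pair of libraries held the same counts. The study's methods describe the replicates as independent experiments.

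The 10 members and the pathway lists were chosen with earlier results of these data known. All 10 members are named, with the 2 largest and the smallest mean change of each list, the targeted genes, and the 5 genes most like NFKBIA and TNFAIP3.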

Additional observations from a re-analysis of the deposited data

Results flagged for a closer look

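Effects that differed between Tsg101 and Vps28 depletion by the edgeR test of the difference were those of TNFAIP3 (1.51 on the log2 scale, 12 of 12 libraries on the same side of the gap between targets), BCL3 (2.03, likewise) and NFKBIA (0.51, adjusted p = 0.0497, under 1.5-fold, with overlapping libraries and an adjusted p of up to 0.156 in the alternatives). Effects that differed between the siRNAs of Tsg101 were those of NFKBIA (0.93), CYLD (0.65) and ZC3H12A (0.68), each higher with siTsg101#1. The cause of these differences was not tested. The test between targets covers the scatter of libraries and not that between siRNAs of a target. BCL3 passed the count filter only through the siTsg101 libraries, so its difference between targets is a description and not a test.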

How the results depend on the processing

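The counts of members called kept within 1.5 times of the main count in the alternatives that left out no single library, except that with at least 10 counts in every library the comparison of Tsg101 with Vps28 gave 0 in place of 2, because TNFAIP3 and BCL3 were then not tested, and that with only the compared groups in the fit the control comparison gave 0 in place of 1. Leaving out each library in turn gave 9 to 9 members with siTsg101#1, 7 to 8 with siTsg101#2, 6 to 8 with siVps28#1, 7 to 8 with siVps28#2, 6 to 7 with all 4 siRNAs, 0 to 1 between controls, 2 to 3 between targets, 0 to 4 between the siTsg101 siRNAs and 0 to 0 between the siVps28 siRNAs. With siCtrl#2 as the reference, 6 members were up with all 4 siRNAs. NFKBIE and CYLD were lost from the main set and ZC3H12A was gained. The share of all genes was not computed for that reference. The replicate block gave 9, 8, 8 and 8 members for the 4 siRNAs and changed only the mean call of BCL3 (adjusted p = 0.0369). Sign changed for TNIP2 with siTsg101#2 (0.021 with siCtrl#2 as the reference, and -0.178 to 0.035 with a library left out), with siVps28#1 (-0.292 to 0.284) and between targets (-0.205 to 0.078), and for BCL3 with siVps28#1 (-0.011 to 0.933) and siVps28#2 (-0.655 to 0.29). None of these TNIP2 or BCL3 values was called. Between the siTsg101 siRNAs, 4 of 25 alternatives lost the call of NFKBIA, 2 that of CYLD and 6 that of ZC3H12A, and the siVps28#1 call of ZC3H12A was lost in 3 of 27. Apart from BCL3, the mean over the 4 siRNAs kept its call for every member in every alternative in which it was tested. Read depth limits TNFAIP3 and BCL3, with 4 to 11 reads in each control library.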
